A study of Mus musculus with 6 samples.

Results

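The genes examined are the T cell receptor alpha variable genes of the mouse, the Trav genes, in splenic T follicular helper (Tfh) cells. Members were all genes whose symbol starts with Trav and whose biotype is TR_V_gene, which gave 108 of the 53379 gene identifiers counted. They form 21 families, 7 of them with a single gene, and 20 further Trav pseudogenes were kept apart. All 108 lie on the plus strand of chromosome 14 between 52427928 and 53977678 (GRCm38), a stretch of 1550 kb.

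A T cell assembles its alpha chain by joining 1 variable segment to a joining segment, and splicing then joins this to the constant gene Trac. The variable segment carries a leader exon and a V exon that codes for the antigen-contacting loops CDR1 and CDR2 and the start of CDR3. The mouse locus grew by duplication, so many segments have near-identical copies, named with the letters d and n. Tfh cells help B cells in germinal centers, and a Tfh population of many clones uses many Trav segments.

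The study compared 3 CTL with 3 Prdm1-CKO mice, all young adult females immunized with NP-CGG in CFA and killed a week later, with 1 library per mouse. Prdm1-CKO mice were Prdm1 fl/fl with CD11c-CRE, which deletes Prdm1 (the gene for BLIMP-1) in dendritic cells with high CD11c and is not aimed at T cells. CTL mice were either Prdm1 fl/fl without CRE or Prdm1 +/+ with CD11c-CRE, and a CTL mouse's own genotype among these is not labelled. Titles of the Prdm1-CKO samples read Blimp1 KO and their genotype entry reads Blimp1 KD. Live TCRβ+ CD4+ CXCR5+ PD1+ cells were sorted, and FOXP3 was not part of this sort.

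Total counts ranged from 7147601 to 16973392 per library. Prdm1 had 28.9, 29.97 and 27.5 CPM in CTL and 30.2, 30.8 and 30.9 CPM in Prdm1-CKO Tfh cells, with a log2 fold change of 0.09 ± 0.19 (SE) and an adjusted p of 0.996 (edgeR quasi-likelihood test). The Tfh markers Cxcr5 (254 to 477 CPM) and Pdcd1 (188 to 385 CPM) were present in every mouse. Foxp3, the regulatory T cell factor, was also present, at 134 to 182 CPM.

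The ends of the V exons show what the members share and where they part. In all 108 members the last 30 bases held the letters TANNNCTG, which span the tyrosine codon and the start of the cysteine codon at the entry to CDR3. On the same strand, 2.76% of 141575 other annotated transcripts held these letters in their last 30 bases. These others include V segments of other receptor genes and were not matched for where a transcript ends. The share thus does not show that the letters are particular to Trav genes. The last 60 bases of 6 segments follow, 5′ to 3′ on the plus strand, from GENCODE M21 transcripts, with the motif in capitals. Trav9-4 and Trav12-2 were among the most used, Trav17 had the smallest p between the groups, Trav11 and Trav1 are the segments of invariant cell types, and Trav21-dv12 is shared with the delta chain.
Trav9-4: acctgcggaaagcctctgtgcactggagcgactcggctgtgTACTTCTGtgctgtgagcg
Trav12-2: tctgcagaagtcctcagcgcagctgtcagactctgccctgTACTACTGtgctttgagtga
Trav17: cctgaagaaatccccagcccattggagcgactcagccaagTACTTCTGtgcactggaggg
Trav11: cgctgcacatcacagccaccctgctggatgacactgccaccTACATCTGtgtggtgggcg
Trav1: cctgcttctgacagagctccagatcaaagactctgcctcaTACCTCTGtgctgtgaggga
Trav21-dv12: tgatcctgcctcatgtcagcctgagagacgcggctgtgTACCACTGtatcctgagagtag

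Copies can be alike over the whole transcript. The next lines give the same 60 bases of the d, n and plain copies of 2 segments, with bases that differ from the d copy in capitals.
Trav12d-2: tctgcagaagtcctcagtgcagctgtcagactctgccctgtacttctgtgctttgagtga
Trav12n-2: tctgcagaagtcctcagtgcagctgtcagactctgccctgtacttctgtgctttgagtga
Trav12-2: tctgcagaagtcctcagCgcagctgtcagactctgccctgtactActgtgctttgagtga
Trav6d-6: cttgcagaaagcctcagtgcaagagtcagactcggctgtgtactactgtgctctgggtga
Trav6-6: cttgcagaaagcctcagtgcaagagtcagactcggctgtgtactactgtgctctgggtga
Trav6n-6: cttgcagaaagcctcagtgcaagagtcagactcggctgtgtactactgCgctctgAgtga
Trav12d-2 and Trav12n-2 did not differ here, whereas Trav12-2 differed from them at 2 bases. Trav6d-6 and Trav6-6 did not differ, and Trav6n-6 differed at 2 bases.

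Summed over all Trav genes, CTL mice held 3158, 1979 and 1832 counts and Prdm1-CKO mice 4017, 2269 and 3659 counts, between 0.0223% and 0.0256% of all counts. The summed Trav level was 216, 234 and 271 CPM in CTL and 226, 231 and 251 CPM in Prdm1-CKO mice, with overlap of the groups. For each 100 counts of Trac there were 23.2 to 26.7 Trav counts. At this depth a count of 0 allows up to 3 counts, or 0.0747% to 0.164% of a mouse's Trav counts, which covers counting error only. In bulk RNA, fewer cells with a segment and less RNA per cell cannot be told apart.

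Usage was broad. Between 74 and 81 of the 108 genes had a count in a given mouse, 65 had a count in every mouse, 24 in some mice, and 19 had none in any mouse. No gene reached 10% of usage, which is the count per exonic base as a share of all Trav genes. The most used gene of a mouse took 4.20% to 6.62%. It was Trav7-2 in CTL replicates 1 and 2, Trav13-1 in CTL replicate 3, Trav12-2 in Prdm1-CKO replicate 1 and Trav9-4 in Prdm1-CKO replicates 2 and 3.

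At the family level, Trav7 led with a mean share of 15.6% over 6 mice. Its share was 18.1%, 14.3% and 14.1% in CTL and 17.7%, 13.98% and 15.5% in Prdm1-CKO mice. Trav6 followed with 12.5%, 12.4% and 10.6% against 12.2%, 14.8% and 14.5%. Trav7 was the leading family in 5 of the 6 mice, and Trav6 led in Prdm1-CKO replicate 2. The other families with many genes were Trav14 (mean 12.1%), Trav9 (10.2%), Trav12 (9.17%), Trav13 (7.60%) and Trav4 (6.74%). Of the single-gene families, Trav21 (1.98%), Trav17 (1.92%) and Trav19 (1.44%) were used most. Trav18 had 2 counts and Trav23 had 1 count, all in CTL replicate 1.

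**Figure D1:**
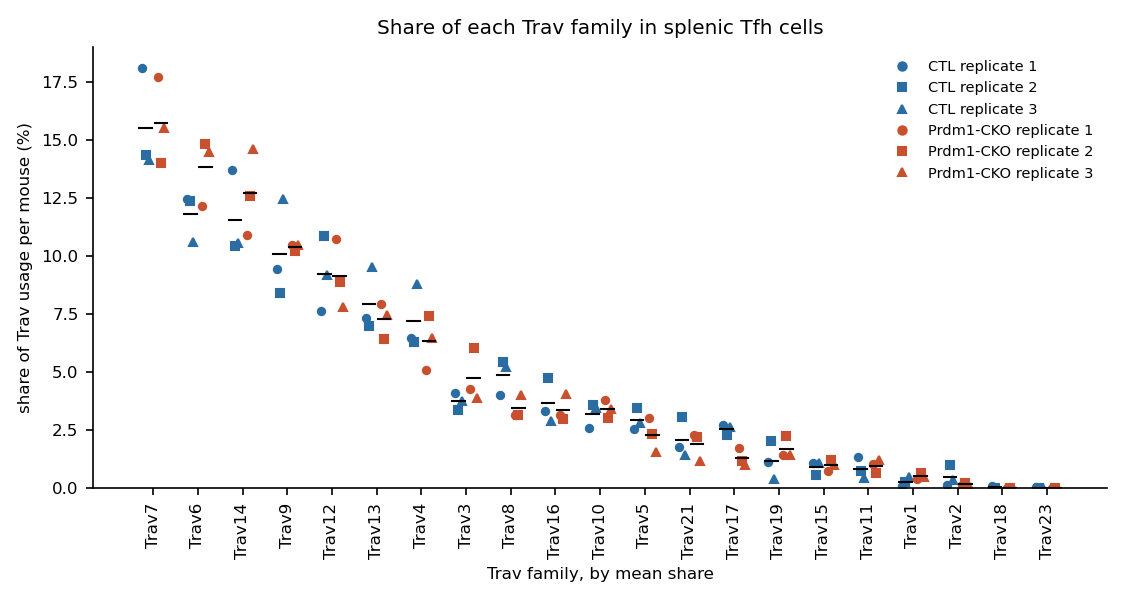
Share of Trav usage (%) of each family, by mean share, with 1 point per mouse and a bar at each group mean. Trav7 has the highest mean (15.6%), and CTL and Prdm1-CKO points overlap in all families but Trav8 and Trav17.

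How a family's share fell to its genes varied. Trav10 made up 92.8% of its family's usage, and Trav3-3 66.5% of the Trav3 family. In the Trav7, Trav6 and Trav14 families the leading gene held only 23.6%, 23.5% and 24.0%. Over all mice the most used gene was Trav13-1 (mean 4.16%), followed by Trav9-4 (4.03%), Trav7-2 (3.68%), Trav7-4 (3.53%) and Trav12-2 (3.12%). The lead of Trav13-1 rested on CTL replicate 3, without which the means were 3.99% for Trav7-2, 3.89% for Trav9-4 and 3.67% for Trav13-1. As shares of counts with no division by length, Trav7-4 (4.08%) and Trav9-4 (4.08%) led, and Trav9-2 (3.72%) stood above Trav13-1 (3.54%). By count per base, ranks 6 to 10 went to Trav7-5 (3.12%), Trav10 (3.07%), Trav6-6 (3.01%), Trav14n-3 (2.91%) and Trav3-3 (2.81%).

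These 10 genes varied between mice of 1 group. Trav13-1 took 3.39%, 4.03% and 6.62% in CTL and 3.85%, 3.23% and 3.88% in Prdm1-CKO mice, so CTL replicate 3 stood above the rest. Trav7-2 took 5.46%, 4.61% and 2.15% in CTL, the reverse pattern among the same mice, and 3.88%, 2.67% and 3.31% in Prdm1-CKO mice. Trav9-4 was steadier, at 3.49%, 3.67% and 4.74% against 3.77%, 4.32% and 4.20%. Over the tested members the median within-group SD of log2 CPM was 0.52. Over all genes tested it was 0.40, without matching for level. Over 2192 other genes in the interquartile range of the members' mean log2 CPM (0.82 to 2.42) it was 0.71.

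Copy number of the sequence bears on each of these values, because reads of 25 bases cannot tell identical copies apart. Only 15 members had at least 50% of their 25-base stretches in no other gene's transcripts, and 38 had none. In 19 pairs, every stretch of at least 1 copy was held by the other, and 13 of these pairs had the same transcript sequence. Over 6 mice the copies nearer the 5′ end of the locus held 7 counts and the copies nearer the 3′ end 2598, or 99.7%. Trav12d-2 had 0 counts and Trav12n-2 had 244, although the lines above show no difference between them. Trav6d-6 had 0 and Trav6-6 464, Trav7d-2 had 3 and Trav7-2 552. In all 15 pairs with over 10 counts, the downstream copy had more. The 19 members with no count in any mouse were 16 d and 3 n copies, and at most 6.22% of their stretches were unique. A count of 0 on such a copy is therefore no measure of that copy's use. Family sums are less exposed, since both copies of a pair belong to the same family, but some stretches lie in genes outside the sums. For Trav7n-6, 99.7% lay in C920008G01Rik. For Trav13d-3, 93.7% lay in Gm30214, and for Trav13n-3, 92.7% lay in Gm43650. Both of these members had no count, and their exons overlap those of the named gene on the opposite strand. The part of this overlap in their counts of 0 was not tested. The pseudogene Trav8-2 held 43.3% of those of Trav8d-2 and 40.4% of those of Trav8n-2.

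**Figure D2:**
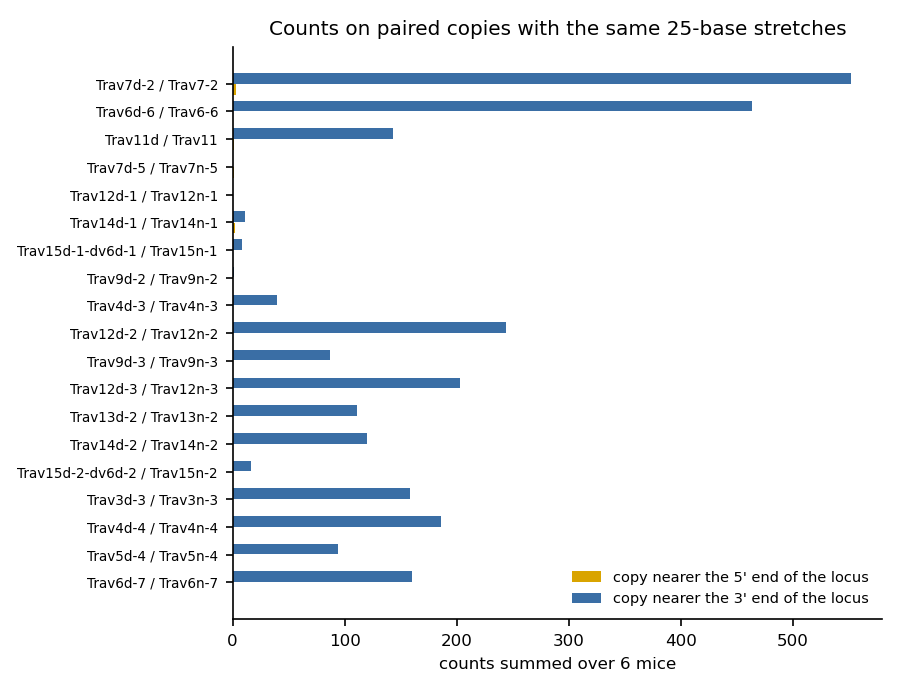
Counts summed over 6 mice for 19 pairs of Trav genes in which every 25-base stretch of at least 1 copy lies in the other. The copy nearer the 3′ end holds nearly all counts, 2598 against 7.

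By copy letter, plain genes took 73.0% to 80.5% of usage, n copies 15.2% to 21.8% and d copies 3.69% to 5.23%, with overlap of CTL and Prdm1-CKO mice in each. Along the locus, the last of 3 equal groups of genes, nearest the joining segments, took 61.1% to 73.1%, and the group at the 5′ end 3.84% to 6.99%. Both splits depend on how reads of identical copies were assigned, since 99.7% of counts in the 19 pairs lay on the downstream copy. Of the 15 members with mostly unique sequence, all of them plain genes, none lay in the middle group, which could not be checked. Between the groups at the 5′ and 3′ ends the order was the same among these members. The split by letter could not be checked in them. The 6 of these at the 5′ end had a median mean share of 0.430% (0.275% to 0.864%), and the 9 at the 3′ end 1.44% (0.00592% to 3.12%). The ranges overlapped, and 4 of the 9 genes at the 3′ end (Trav3-4, Trav15-1-dv6-1, Trav18 and Trav23) had a mean share below 0.864%.

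**Figure D3:**
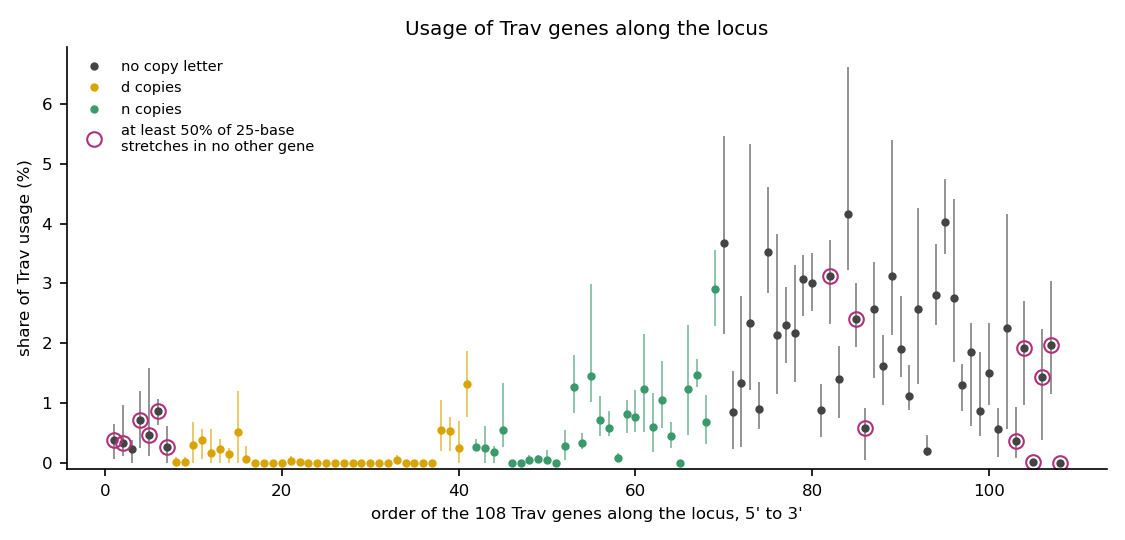
Share of Trav usage (%) of 108 genes in their order along the locus, with a point at the mean and a line from the lowest to the highest of 6 mice. Rings mark the 15 genes with at least 50% unique 25-base stretches, whose median was 0.430% at the 5′ end and 1.44% at the 3′ end.

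Evenness asks whether a few segments dominate a mouse. Pielou's evenness, which is 1 where all 108 genes are used alike, was 0.847, 0.849 and 0.834 in CTL (mean 0.843 ± 0.0085 SD, n = 3). It was 0.839, 0.855 and 0.852 in Prdm1-CKO mice (0.849 ± 0.0082, n = 3). The effective number of genes (the inverse Simpson index) was 42.6, 44.4 and 38.4 in CTL and 40.0, 45.2 and 44.5 in Prdm1-CKO mice. The 10 most used genes of a mouse took 33.9% to 39.7% in CTL and 33.6% to 39.0% in Prdm1-CKO mice. Over all members the groups overlapped in these 3 measures, and their means differed by less than the SD within groups. After thinning every mouse to 1832 Trav counts, evenness was 0.843 in CTL and 0.847 in Prdm1-CKO mice. The 108 genes include copies that reads cannot tell apart, so the value of evenness depends on how reads were assigned. With copies that share at least 90% of their stretches summed, 84 features remained (an alternative added after seeing the data). Evenness was then 0.889 ± 0.0075 in CTL and 0.894 ± 0.0080 in Prdm1-CKO mice (SD, n = 3). Over families the order of the means was the opposite, 0.846 in CTL and 0.834 in Prdm1-CKO mice. Over the 15 members with mostly unique stretches evenness was 0.799 ± 0.019 in CTL and 0.828 ± 0.036 in Prdm1-CKO mice (SD, n = 3), a difference of 0.0289 against 0.00535 over all members.

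**Figure D4:**
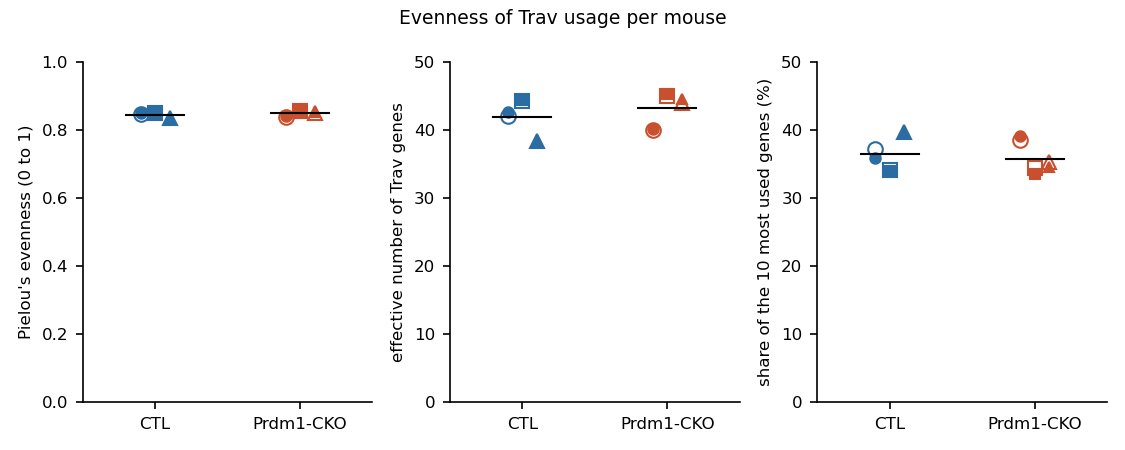
Evenness, effective number of genes and share of the 10 most used genes (%) per mouse, with a bar at each group mean, filled points for all counts and open points after thinning to 1832 counts. CTL (0.834 to 0.849) and Prdm1-CKO (0.839 to 0.855) evenness overlap.

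Whole usage profiles were also compared by the percentage points of usage that differ between a pair of mice. Over genes they differed by 20.7 to 26.2 within CTL, by 15.9 to 18.5 within Prdm1-CKO and by 17.1 to 24.2 between the groups. Over genes, pairs of mice from different groups thus lay within the range of pairs from the same group. Over families the differences were 10.6 to 11.9 within CTL, 7.70 to 10.02 within Prdm1-CKO and 6.48 to 12.4 between the groups, where the range was wider at both ends. Over genes, CTL replicate 2 had the largest mean difference from the other mice, 23.0 points, and the lowest mean was 18.4 points. CTL replicates 2 and 3 also had the fewest Trav counts, 1979 and 1832. Counting error enters these differences, which were taken without thinning, and its part was not tested.

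For single genes, 60 of the 108 members passed the expression filter. None changed at an adjusted p below 0.05 by edgeR, where the background was 0% in either direction, and none had an unadjusted p below 0.05, where it was 0.928% higher and 1.42% lower. Fold changes were above 0 for 30 members and below 0 for 30 (background above 0, 51.1%), with a median log2 of 0.01, and the median over all 14555 genes was 0.01 too. They ran from -1.09 to 1.49, and 4 members exceeded a 2-fold difference. Their SE was 0.32 to 1.06 (median 0.57). It holds counting error and a spread between mice that edgeR estimates with information from all genes tested. It is thus not the scatter of a gene's own 3 mice per group. For Trav5-4 the within-group SD of log2 CPM was 0.10 and the SE 0.49. Differences near 2 SE, such as those of Trav17 and Trav3-4, did not pass the test either.

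By CPM the groups were separate in 4 of the 60 tested members. In 2 of them all Prdm1-CKO values exceeded all CTL values (background 4.56%), and in 2 all were lower (background 3.86%). The lower pair were Trav17 and Trav5-4, and the higher pair Trav3-4 and Trav3n-3. By usage share 8 of the 108 members were separate, these 4 and also Trav7-4, Trav12n-3 and Trav9d-4 (lower) and Trav12-2 (higher). This measure has no background over all genes. Few or no reads could tell Trav3n-3, Trav12n-3, Trav9d-4 and Trav7-4 from other genes, with 0%, 0.304%, 4.42% and 6.79% of their stretches unique. The unique part was 27.9% for Trav5-4, 34.3% for Trav12-2 and 60.4% for Trav3-4. Trav17 (chromosome 14, 53806639 to 53807115, GRCm38) had the smallest p of all members, and all of its 25-base stretches were unique. Its counts were 75, 40 and 42 in CTL and 61, 23 and 31 in Prdm1-CKO mice. As shares of Trav counts these were 2.37%, 2.02% and 2.29% in CTL and 1.52%, 1.01% and 0.847% in Prdm1-CKO mice. The 95% Wilson intervals, which cover counting error only and take reads as independent, ran from 1.49% to 3.08% over the CTL mice and from 0.598% to 1.95% over the Prdm1-CKO mice. The level was 5.14, 4.74 and 6.21 CPM in CTL and 3.44, 2.34 and 2.12 CPM in Prdm1-CKO mice. The log2 fold change was -1.02 ± 0.46 (SE), with a 95% interval from -2.09 to 0.05, an unadjusted p of 0.059 and an adjusted p of 0.996 (edgeR). Without CTL replicate 2 the unadjusted p was 0.037 and the adjusted p 0.999 (edgeR).

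Trav5-4 had 3.08, 3.44 and 3.70 CPM in CTL and 2.08, 2.14 and 1.92 CPM in Prdm1-CKO mice, and the log2 fold change was -0.73 ± 0.49 (SE). Trav3-4 was scarce, with 11, 4 and 2 counts in CTL and 18, 25 and 14 in Prdm1-CKO mice, and a log2 fold change of 1.49 ± 0.77 (SE). Trav12-2 and Trav7-3 each had 1 high mouse, Prdm1-CKO replicate 1. Trav12-2 had 74, 53 and 53 counts in CTL and 236, 82 and 111 in Prdm1-CKO mice, and Trav7-3 had 66, 25 and 29 against 220, 42 and 80. Their log2 fold changes were 0.61 ± 0.39 and 0.91 ± 0.52 (SE). The other members named for a small p were Trav6-5 (0.70), Trav6d-5 (1.39), Trav12n-3 (-0.88), Trav4n-4 (-0.82) and Trav7-4 (-0.44), each with an adjusted p of 0.996 (edgeR) and overlapping CPM. Single mice moved several of these values: without Prdm1-CKO replicate 1 the log2 fold change was 0.32 for Trav12-2, 0.32 for Trav7-3 and -0.52 for Trav4n-4. It was 0.92 for Trav3-4 without Prdm1-CKO replicate 2 and -0.39 for Trav12n-3 without CTL replicate 2. For Trav6d-5, leaving out CTL replicate 1 gave 2.396, leaving out CTL replicate 2 gave 0.82, and leaving out Prdm1-CKO replicate 3 gave 0.80.

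**Figure D5:**
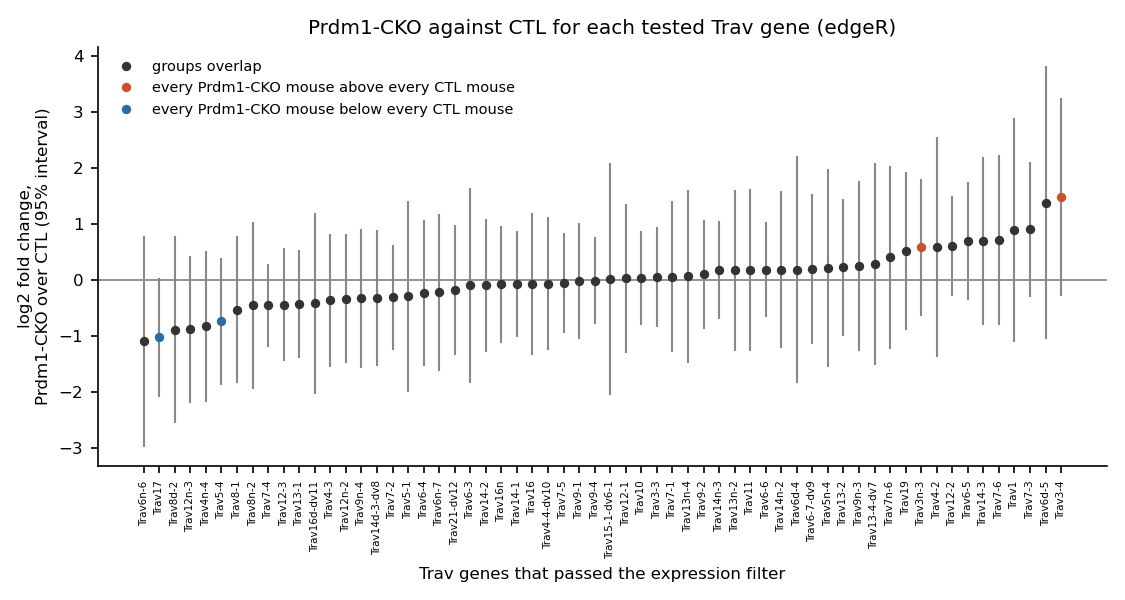
Log2 fold change of Prdm1-CKO over CTL with its 95% interval for the 60 tested Trav genes, in order of size. Intervals of all 60 include 0, Trav17 (-1.02) and Trav5-4 (-0.73) had every Prdm1-CKO mouse below every CTL mouse by CPM, and Trav3-4 (1.49) and Trav3n-3 (0.59) every one above.

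Sums over several genes gave tighter estimates, while the sum of a single-gene family is that gene again. Of 21 families 18 were tested, 8 had a log2 fold change above 0 (background 51.1%), and none had an unadjusted p below 0.05 (background 0.916% higher and 1.42% lower) or an adjusted p below 0.05 (background 0%, edgeR). Estimates ran from -1.02 for Trav17 to 0.90 for Trav1, with SE from 0.20 to 0.87. For Trav7, with the smallest SE, the interval was -0.47 to 0.45 around -0.01. Trav17, a single-gene family and so the gene named above, was the only one with every Prdm1-CKO mouse below every CTL mouse (background 3.88%). No family lay above (4.55%). The Trav8 family took 4.02%, 5.42% and 5.22% of usage in CTL and 3.16%, 3.15% and 4.01% in Prdm1-CKO mice. Its CPM values overlapped, with a log2 fold change of -0.54 ± 0.36 (SE).

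Some segments mark cell types other than conventional helper cells. Trav11 pairs with the joining segment Traj18 in invariant NKT cells, and Trav1 is the segment of MAIT cells. Trav11 and its copy Trav11d together had 37, 13 and 7 counts in CTL and 36, 13 and 38 in Prdm1-CKO mice, or 0.434% to 1.33% of usage. Traj18 had 3.43 to 4.62 CPM in CTL and 3.55 to 5.59 CPM in Prdm1-CKO mice. Trav1 had 2, 5 and 8 counts in CTL and 15, 14 and 17 in Prdm1-CKO mice, at 0.137, 0.592 and 1.18 against 0.845, 1.42 and 1.16 CPM, and the groups overlapped (log2 fold change 0.90 ± 0.87 SE). Conventional alpha chains also use these segments, so the counts do not count such cells.

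In 10 members the symbol names a delta chain segment too, since these can join to either chain. Together they took 10.5%, 7.21% and 11.7% of usage in CTL and 10.2%, 10.1% and 9.16% in Prdm1-CKO mice. The most used were Trav4-4-dv10 (mean 2.75%), Trav21-dv12 (1.98%) and Trav6-7-dv9 (1.85%), with log2 fold changes of -0.06, -0.17 and 0.21. Trdc, the delta constant gene, had 9 to 75 counts, 0.126% to 0.795% of those of Trac.

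Of 8 genes of the alpha chain and CD3 complex list none passed the test, and 1 (Cd3g, the CD3 gamma chain) had a log2 fold change above 0, with a list median of -0.05. Trac had 924, 938 and 1058 CPM in CTL and 944, 996 and 937 CPM in Prdm1-CKO mice (log2 fold change -0.02 ± 0.12 SE). Cd4 had 896, 1061 and 1031 CPM in CTL and 823, 774 and 847 CPM in Prdm1-CKO mice (log2 fold change -0.29 ± 0.12 SE, adjusted p of 0.996 by edgeR). Rag1 and Rag2, the recombinase genes, had no count in any mouse, and Dntt, which adds bases at the junction, had 2.67, 0.355 and 0.592 CPM in CTL and 3.04, 3.56 and 2.397 CPM in Prdm1-CKO mice. Of the lists for other cells, the 5 B cell markers all had log2 fold changes above 0 (median 0.79, none passed), with a summed level of 41.0 to 121 CPM in CTL and 109 to 158 CPM in Prdm1-CKO mice. Summed levels overlapped for gamma-delta T (12.1 to 17.8 against 9.25 to 21.0 CPM), invariant NKT (66.3 to 83.4 against 49.1 to 82.0 CPM) and CD8 T markers (66.3 to 90.5 against 61.5 to 71.5 CPM). Within the CD8 T list, Cd8a and Gzmk were lower in every Prdm1-CKO mouse (background 3.86%). Cd8b1 was higher in every one (background 4.56%), Eomes overlapped, and none passed. Treg markers summed to 499.7 to 583 CPM in CTL and 422 to 479 CPM in Prdm1-CKO mice, lower in all 3 of the latter. Taken singly, each of the 3 genes (Foxp3, Ikzf2 and Il2ra) overlapped between the groups, and none passed. Sums of markers have no background over all genes. The part of these cells in Trav usage was not tested.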

How the data were processed

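Splenic Tfh RNA of 6 mice was measured as Smart-seq2 RNA-seq. The deposited values were raw counts per gene and library, made by the authors with featureCounts from paired reads of 25 bases on GRCm38 with a GENCODE annotation. The submitters' processing notes name STAR 2.4.2a, DESeq2 and GRCm38.p6. How multiply aligned reads were assigned, and whether paired mates counted singly, is not given in the sources used here. In every library more genes had 2 counts than 1.

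Identifiers without version were matched to GENCODE M21 on GRCm38, which held 53274 of 53379. Members were genes whose symbol starts with Trav and whose biotype is TR_V_gene. The members and gene lists were chosen with earlier results of these data known. A usage share is a count divided by exonic length, as a percentage of that sum over all members. CPM values were scaled with TMM factors. The quasi-likelihood test of edgeR 4.0.16 in R 4.3.3 compared 3 Prdm1-CKO with 3 CTL mice after the filterByExpr filter, with no covariate, with Benjamini-Hochberg adjustment over all 14555 genes tested. Family sums replaced their genes in a table fitted in the same way. Stretches of 25 bases were called unique where no transcript of another annotated gene held them.

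Named genes were the 10 with the highest mean usage share, the 5 higher and the 5 lower with the smallest unadjusted p, any with a share of 10% in a mouse (there were none), Trav1, Trav11 and Trav11d, and the 3 most used segments shared with the delta chain. Genes named for non-overlapping groups, another rank, copy pairs or low counts outside that rule were chosen after their values were seen. Older symbols of gamma constant genes were matched through the RefSeq table. Alternatives were DESeq2 1.42.0, other size factors and filters, a replicate block, leaving out each mouse, and other usage measures. Same-numbered mice of the groups had correlations of 0.16, 0.028 and 0.016 between their deviations from the group means. Mice with different numbers had correlations from -0.13 to 0.083. The numbers were not taken as pairs in the main fit, and the replicate block is the alternative to that choice. The fit was tested on simulated counts with planted changes larger than any of the members in the main fit. Smaller changes were not simulated. The evenness measure was tested on fixed distributions of known evenness.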

Additional observations from a re-analysis of the deposited data

How the results depend on the processing

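No member or family passed an adjusted p of 0.05 under any alternative run. Members with a lower value at an unadjusted p below 0.05 numbered 0 in the main edgeR fit, 1 with no filter (Trav9d-4), and 1 (Trav17) with at least 10 counts in every mouse and with the DESeq2 Wald test; for families it was 1 (Trav17) under the latter 2 settings. Leaving out 1 mouse at a time gave 0 to 1 for members and 0 to 1 for families, the 1 being Trav17 without CTL replicate 2 in both. The Trav17 unadjusted p ran from 0.021 to 0.18 over all alternatives, and the adjusted p from 0.73 to 1.00 (edgeR, DESeq2). Members near 0 changed sign. For Trav9-4 the log2 fold change was 0.02 with no filter, 0.00075 with at least 10 counts, 0.024 with the replicate block, 0.0016 with DESeq2 and 0.0084 with counts halved and rounded up (an alternative added after seeing the data). Without 1 mouse it ran from -0.17 to 0.26 for Trav9-4, -0.69 to 0.043 for Trav13-1, -0.25 to 0.10 for Trav7-5, -0.16 to 0.20 for Trav10 and -0.11 to 0.29 for Trav3-3. The replicate block left 0 members and 0 families at an unadjusted p below 0.05. The difference in evenness was 0.00535, ran from 0.00047 (without CTL replicate 3) to 0.00999 (without Prdm1-CKO replicate 1), and was 0.0289 over the 15 members with mostly unique stretches, also added later, where fewer genes enter. Without CTL replicate 3 the difference in effective number was -0.28. The cause of these shifts was not tested. The 2 alternatives that need stretches unique in the genome were not run, since no genome sequence was used here. Counts of 1832 to 4017 per mouse limit the precision of every single gene.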

Other observations

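Trav pseudogenes held 54, 28 and 47 counts in CTL and 47, 34 and 44 in Prdm1-CKO mice. Most came from Trav8-2, with 34, 23 and 28 counts in CTL and 30, 25 and 30 in Prdm1-CKO mice, of whose 25-base stretches 27.5% were unique. Trav20, with all stretches unique, had 3, 0 and 11 counts in CTL and 2, 6 and 1 in Prdm1-CKO mice. Of 20 Trav pseudogenes these were named after their values were seen. The low-count gene Trav9d-4 had 3, 4 and 3 counts in CTL and 0 in each Prdm1-CKO mouse, and 91.7% of its stretches lay in Trav9n-4, which had 59, 16 and 22 against 51, 24 and 30 counts.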
